A study of Mus musculus with 12 samples.

Results

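The reactive astrocyte genes described here are 39 genes out of 48709 in the count files, chosen by name as genes that astrocytes are known to raise in injury or inflammation. Of the 39, 37 passed a filter on low counts and were tested together with the other genes, 18847 in all. The list was put together when earlier results of the same comparison were known, so the fold changes of its members describe them and are no independent test. RNA was sequenced from primary hippocampal cultures of CD1 mouse embryos at embryonic day 17. At day 10 in vitro the cultures received lipid nanoparticles with a miR-148a-3p mimic (6 samples, mimic) or with a negative control oligonucleotide (6 samples, control), and they were harvested at day 12, after 48 h. According to the methods of the study ApoE4, a lipid carrier protein, was added as well, and hippocampi of several embryos were pooled for a preparation. Nothing says that the 6 samples of a group came from separate preparations, so p-values measure the spread between these samples, which may be technical. The comparison asks which transcripts change when the level of miR-148a-3p is raised.

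Astrocytes support neurons, take up glutamate and buffer ions. After injury or an inflammatory stimulus they become reactive: they build more intermediate filament protein and secrete complement factors, acute phase proteins and protease inhibitors. Cytokines of the IL-6 family, which signal through gp130 and the transcription factor STAT3, and factors that activate NF-kappa-B are known inducers of this state. A microRNA lowers transcripts that carry a match to its seed, the bases near its 5′ end, in the 3′ untranslated region (UTR).

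The oligonucleotides are shown because the seed, in capitals (bases 2 to 8), sets which transcripts can pair with them.
miR-148a-3p mimic: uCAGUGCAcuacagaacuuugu
negative control: uCACCGGGuguaaaucagcuug
The mimic sequence was identical to mature mmu-miR-148a-3p in RefSeq, which lies at chr6:51269829-51269850 on the minus strand of GRCm38. The series description names the control a siRNA, so values for the control seed assume that the listed sequence was the one used.

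Seed matches were looked for in the longest 3′ UTR of each member in GENCODE M21. A member was counted when its UTR held the 7-base complement of the seed, or the complement of bases 2 to 7 with an A after it. This was so for 4 of the 37 tested members (10.8%), compared with 21.9% of the 15082 tested genes with a UTR. No member held an 8-base match, which 4.15% of these genes did. The stretches are shown because they are the places in the list that the mimic seed could pair with, with the match in capitals.
Nes, bases 15 to 21 of the UTR: cccctctgGCACTGAggacttag
Synm, bases 1795 to 1801: cctgtgggGCACTGAggatccta
Stat3, bases 2518 to 2524: cccagcccTGCACTGggtgcctc
Tm4sf1, bases 1386 to 1392: ttacaggcTGCACTGtcataggc
Tm4sf1, bases 1947 to 1953: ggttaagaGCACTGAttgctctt
Of these 4 genes, Synm, Stat3 and Tm4sf1 fell and Nes was not called. Over all 37 tested members 21 fell (56.8%). The share that fell among all tested genes with a match was not counted, so these 4 genes give no result about the matches. The members that fell most, Steap4, Clcf1, Lcn2, C3, Tgm1 and Osmr, held no 7-base match in the UTR searched. A match to the negative control seed occurred in 1 member, Icam1, at bases 217 to 223 of its UTR (acctacagCCCGGTGgaccttca), and in 4.40% of tested genes.

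Library totals ranged from 20018234 to 37149112 counts. The lowest total was that of control replicate 1, which also stood farthest from the other libraries of its group, with a mean distance of 0.262 on the log2 scale against 0.201 or less for the other 11 libraries. The cultures are labelled as neurons. Neuron markers summed to between 6610 and 7484 CPM (counts of a gene relative to the scaled library total) over the 12 libraries, and 12 markers of homeostatic astrocytes to between 3960 and 6270 CPM. Microglial markers were low, at 24.3 to 45.5 CPM for 12 genes, and the defining microglial genes P2ry12, Tmem119 and Cx3cr1 were each below 1 CPM in all 12 libraries. Endothelial markers summed to between 28.3 and 68.8 CPM, nearly all of it Kdr, and Cldn5, Ly6c1 and Ly6a did not pass the filter.

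In control cultures the filament and secreted genes led the list. Levels between genes are compared as CPM per kb of exon. Gfap, the astrocyte filament protein, had the highest mean control level with 323 CPM per kb, followed by Vim, the filament protein vimentin, with 191 CPM per kb. Lgals1, a secreted galectin, reached 88.7 CPM per kb and the protease inhibitor Serpina3n 53.9 CPM per kb. These were followed by Nes (38.3 CPM per kb), which encodes nestin, C3 (35.9 CPM per kb), the central complement protein, and Lcn2 (28.8 CPM per kb), which encodes the iron-siderophore binding protein lipocalin-2. The steps from Gfap to Vim, Lgals1, Serpina3n and Nes were each larger than the ranges of the 6 control libraries, and below them the order was loose: 27 of the 36 neighboring pairs among the tested members had ranges that overlapped. At the low end were Bcl3 (0.0706 CPM per kb), which encodes an atypical I-kappa-B protein, and the genes below the filter, Ch25h (0.0564), a cholesterol hydroxylase, and Slc10a6 (0.0254), a steroid sulfate transporter.

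**Figure D1:**
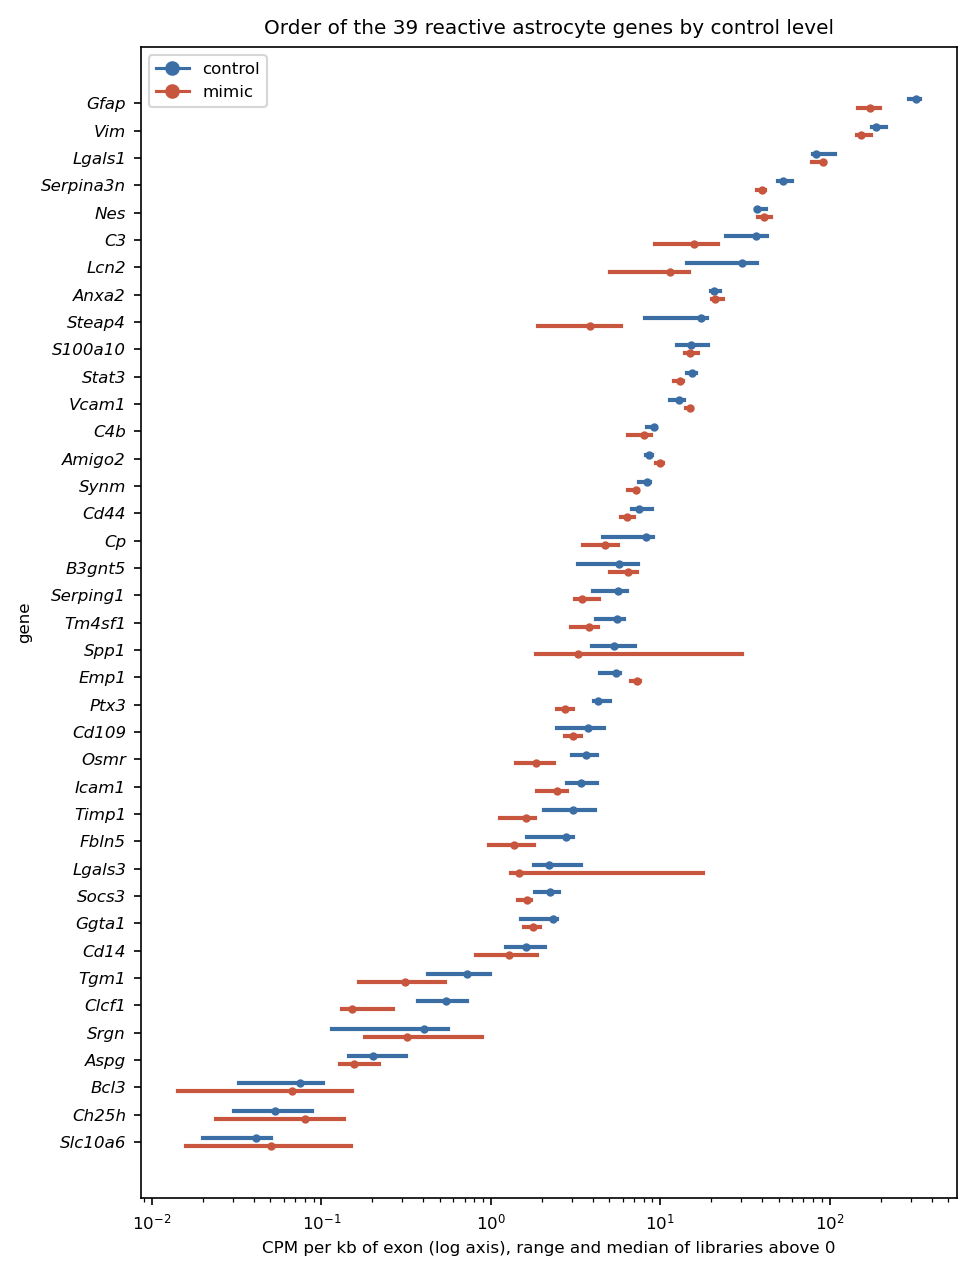
The 39 genes ordered by mean control level (vertical axis) against CPM per kb of exon on a log axis, with a line from the lowest to the highest library above 0 and a dot at their median, for control and mimic. Gfap and Vim lead in both groups, and the mimic lines of Steap4, C3, Osmr, Clcf1 and Gfap lie wholly below their control lines.

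In mimic cultures 21 of the 37 tested members (56.8%) were lower at an edgeR adjusted p under 0.05, and 3 (8.1%) were higher. Over all tested genes 10.7% were lower and 11.5% higher. The median log2 fold change (mimic minus control) was -0.29 over the members and -0.01 over all tested genes. Of the members, 6 fell by at least 1 on the log2 scale (Steap4, Clcf1, Lcn2, C3, Tgm1 and Osmr), a size that 0.573% of tested genes reached in that direction. In 15 members the ranges of mimic and control were separate, 12 of them lower and 3 higher; this held for 13.3% of all tested genes. Without control replicate 1 the members called were 22 lower and 3 higher, and of all genes tested in that fit 13.1% were lower and 14.4% higher. RNA of whole cultures was measured, so fewer cells of a type and less RNA per cell cannot be told apart.

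**Figure D2:**
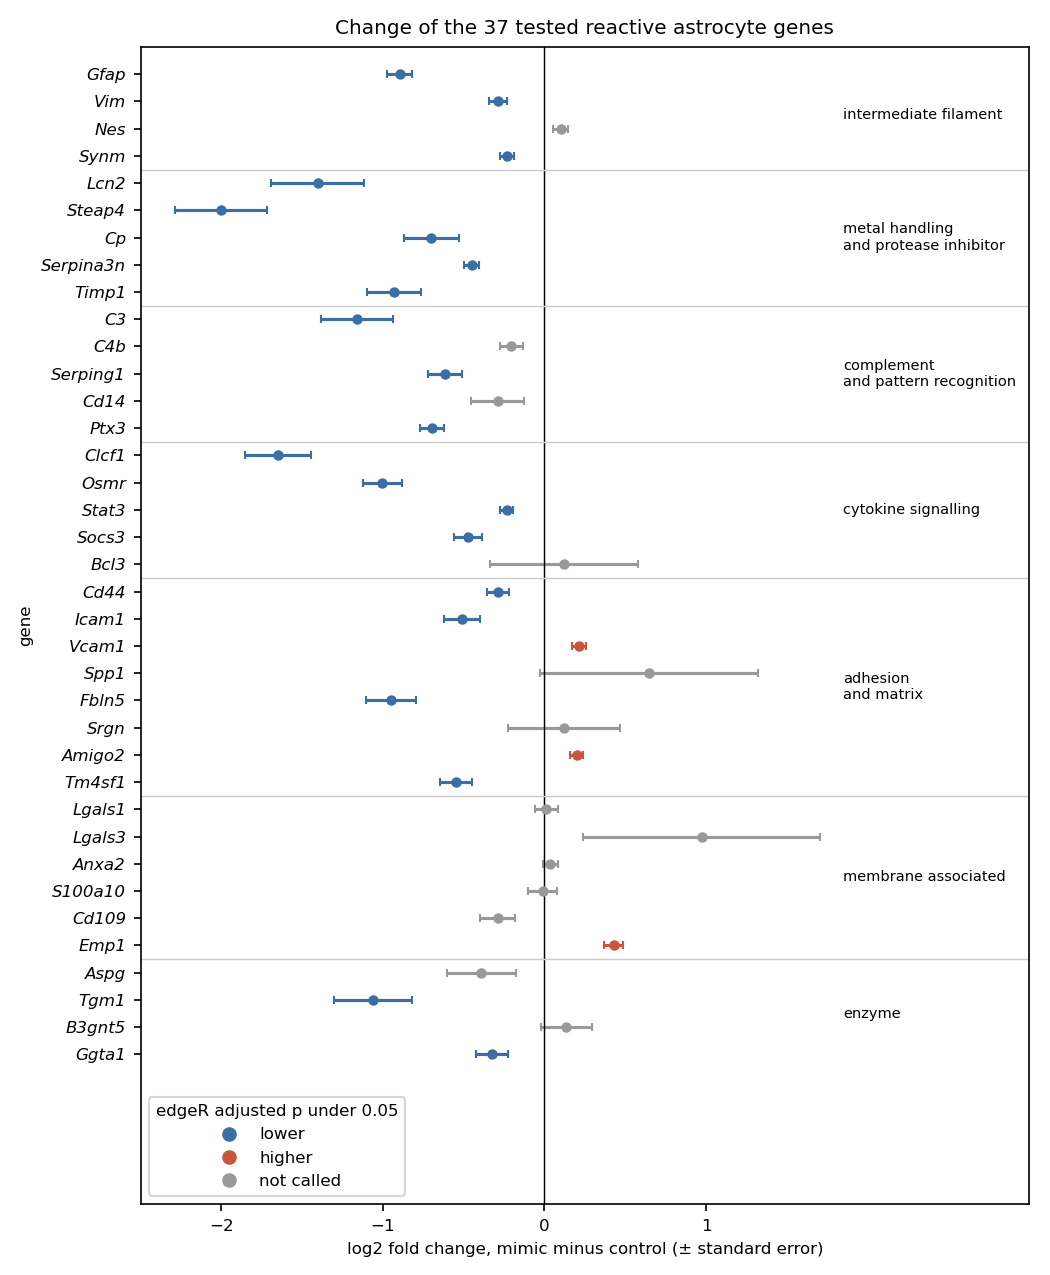
The log2 fold change (mimic minus control, horizontal axis) of the 37 tested members by role (vertical axis), with bars of 1 standard error; color gives the call at an edgeR adjusted p under 0.05. The 5 genes of metal handling and protease inhibition all lie left of 0, and of the membrane group only Emp1 is called; Lgals3, farther to the right, has a wide bar and is not called.

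Intermediate filament genes fell in 3 of 4 cases. Gfap ranged from 1248 to 1438 CPM in control (median 1369) and from 622 to 839 CPM in mimic (median 731). Every mimic library was far below every control library, and the log2 fold change was -0.90 ± 0.08 (SE, n = 6 per group, edgeR adjusted p = 5.52e-07). Vim, the filament protein of immature and reactive astrocytes and also of fibroblasts and endothelial cells, ranged from 844 to 1021 CPM in control (median 894) and from 685 to 834 CPM in mimic (median 729). The groups touched closely without overlapping, with mimic replicate 5 just below control replicate 3, and the log2 fold change was -0.29 ± 0.05 (edgeR adjusted p = 0.000743). Synm, whose product synemin joins vimentin and GFAP filaments, ranged from 59.1 to 68.6 CPM in control (median 66.0) and from 51.5 to 58.1 CPM in mimic (median 57.2). The lowest control library stood just above the highest mimic library, with a log2 fold change of -0.23 ± 0.04 (edgeR adjusted p = 0.000861). Some reads of Synm can belong to Ttc23, which overlaps it by 84 exon bases on the opposite strand. Nes, a filament gene of progenitor cells, was not called, with overlapping libraries and a log2 fold change of 0.10 ± 0.05 (edgeR adjusted p = 0.143).

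All 5 genes of metal handling and protease inhibition fell. Steap4, a metalloreductase, ranged from 25.6 to 59.5 CPM in control (median 55.2) and from 6.02 to 18.5 CPM in mimic (median 12.2). This was the largest fall among the 37 tested members, a log2 fold change of -2.0 ± 0.29 (edgeR adjusted p = 0.000365), and the highest mimic library stayed below the lowest control library, replicate 1. Lcn2 ranged from 37.9 to 97.2 CPM in control (median 80.2) and from 13.2 to 38.6 CPM in mimic (median 30.1). Its log2 fold change was -1.40 ± 0.29 (edgeR adjusted p = 0.0045), and the groups overlapped through a single control library, replicate 1, which lay below mimic replicate 3. Without control replicate 1 the log2 fold change of Lcn2 was -1.53. Cp, the copper oxidase ceruloplasmin, ranged from 44.0 to 87.3 CPM in control (median 79.1) and from 33.5 to 53.9 CPM in mimic (median 45.2). Control replicate 1 again lay within the mimic libraries, and the log2 fold change was -0.70 ± 0.17 (edgeR adjusted p = 0.00996), or -0.80 without that library. Cp shares 108 exon bases with Hps3 on the other strand.

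Serpina3n, which inhibits serine proteases, moved less but with little spread. It ranged from 102 to 123 CPM in control (median 109) and from 76.9 to 86.0 CPM in mimic (median 81.8), a log2 fold change of -0.45 ± 0.05 (edgeR adjusted p = 2.00e-06). The groups stood well apart. Genes of the same family carried far fewer reads: Serpina3h had a mean of 177 counts and Serpina3m 101, against 2863 for Serpina3n, and how reads shared by them were counted is not stated. Timp1, an inhibitor of matrix metalloproteinases, was low, with at most 3.65 CPM in control and 1.62 CPM in mimic, and its log2 fold change was -0.93 ± 0.17 (edgeR adjusted p = 0.000502) with no overlap.

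Complement and pattern recognition genes were lower in 3 of 5 cases. C3 ranged from 126 to 220 CPM in control (median 189) and from 47.9 to 113 CPM in mimic (median 81.8), a log2 fold change of -1.16 ± 0.22 (edgeR adjusted p = 0.00286). Mimic replicates 3, 4 and 5 were well above replicates 1, 2 and 6, and control replicate 1 was the control library nearest to them. Serping1, the inhibitor of the first complement component, ranged from 9.34 to 14.7 CPM in control (median 13.1) and from 7.35 to 10.1 CPM in mimic (median 8.01). Its log2 fold change was -0.62 ± 0.11 (edgeR adjusted p = 0.000354), and only control replicate 1 lay within the mimic range. Ptx3, a secreted pentraxin that binds microbes and complement, ranged from 10.9 to 13.6 CPM in control (median 11.5) and from 6.62 to 8.15 CPM in mimic (median 7.38). These libraries did not overlap, with a log2 fold change of -0.70 ± 0.07 (edgeR adjusted p = 2.35e-06).

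C4b, the fourth complement component, missed the threshold with a log2 fold change of -0.20 ± 0.07 (edgeR adjusted p = 0.0546). It is nearly identical to C4a, which had a mean of 160.5 counts against 1421 for C4b, so the value of either is uncertain. The called member nearest to the threshold was Ggta1 (edgeR adjusted p = 0.0241), and beside C4b the nearest member not called was Cd109 (edgeR adjusted p = 0.0723). Cd14, a co-receptor for bacterial lipopolysaccharide, was low and overlapping, at 2.13 to 3.64 CPM in control and 1.42 to 3.23 CPM in mimic (edgeR adjusted p = 0.243).

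Of the cytokine signaling genes, a ligand, a receptor, a transcription factor and a feedback inhibitor all fell, 4 of 5. Clcf1, a ligand of the IL-6 family, was rare, with 1.41 to 2.76 CPM in control (median 2.07) and 0.506 to 1.01 CPM in mimic (median 0.580). The 2 ranges did not meet, and the log2 fold change was -1.65 ± 0.20 (edgeR adjusted p = 1.26e-05) at a mean of 39.8 counts. Clcf1 shares 311 exon bases on the same strand with an annotated gene that has no row in the count files. Some of its reads can belong to that gene. Osmr, the receptor subunit for oncostatin M, ranged from 36.4 to 51.5 CPM in control (median 44.4) and from 17.1 to 28.4 CPM in mimic (median 22.4). None of the mimic libraries reached the control range, with a log2 fold change of -1.0 ± 0.12 (edgeR adjusted p = 2.16e-05).

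Stat3, the transcription factor below these receptors, changed by less. It ranged from 137 to 155 CPM in control (median 147) and from 115 to 129 CPM in mimic (median 125), a log2 fold change of -0.24 ± 0.04 (edgeR adjusted p = 0.000343). No library of one group entered the range of the other, and mimic replicate 2 lay apart below the rest. Socs3, which STAT3 induces and which inhibits gp130 signaling, ranged from 5.25 to 7.28 CPM in control (median 6.44) and from 4.20 to 4.97 CPM in mimic (median 4.72). The gap between the groups was narrow, and the log2 fold change was -0.47 ± 0.09 (edgeR adjusted p = 0.000621). Bcl3 had a mean of 5.25 counts and was not called (edgeR adjusted p = 0.894).

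**Figure D3:**
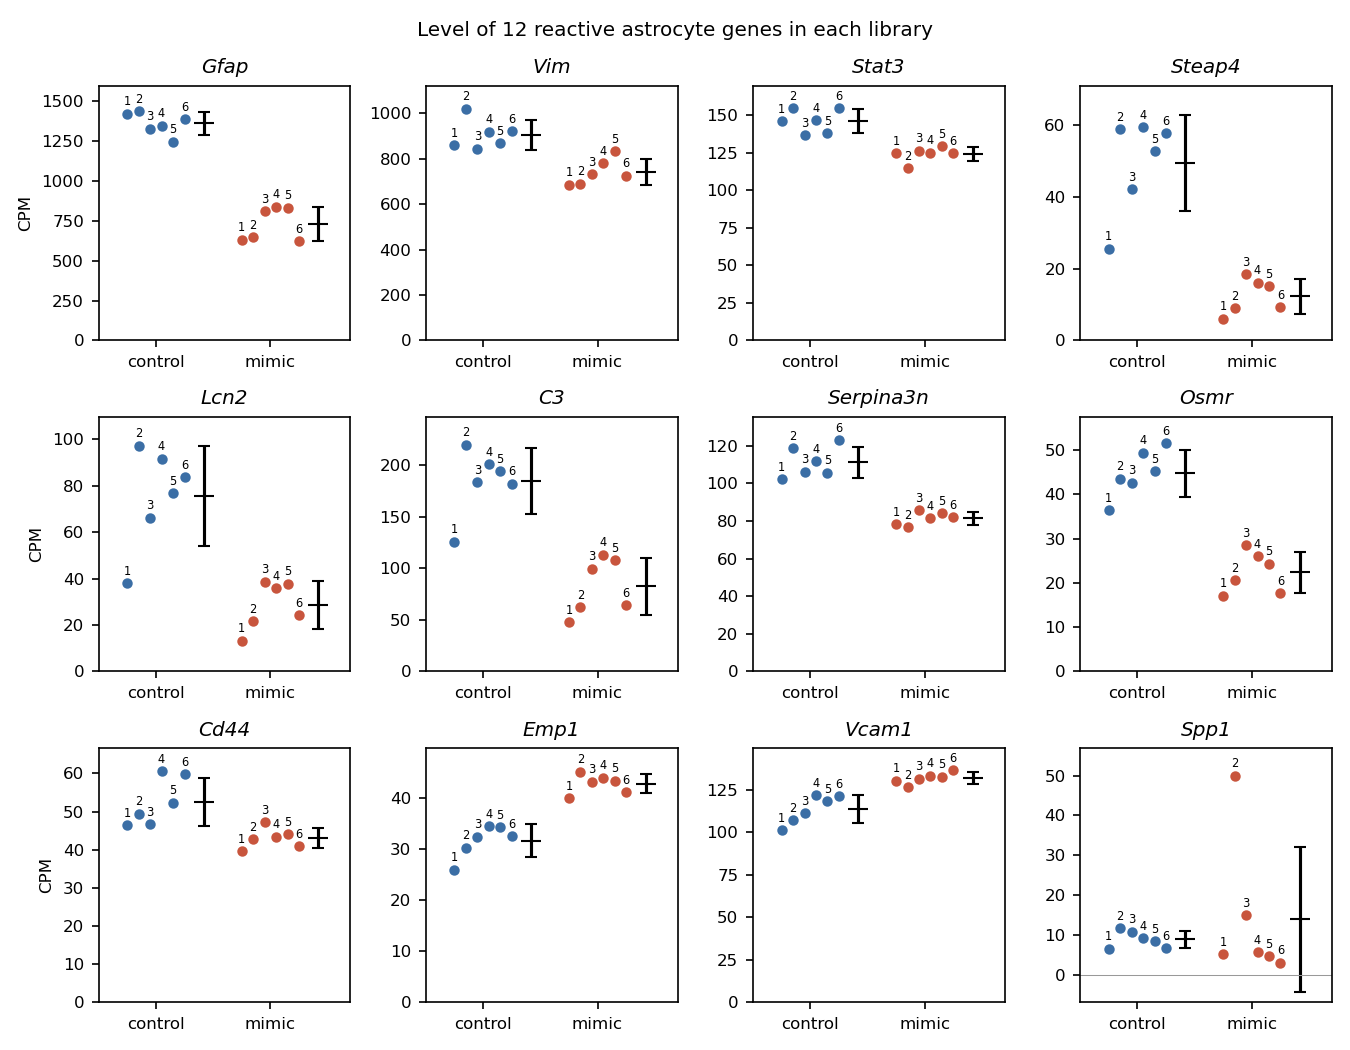
CPM (vertical axes, from 0 except for Spp1, whose error bar reaches below it) of 12 members in each library, numbered by replicate, with the mean and SD of each group of 6 as a black bar. Mimic replicates 3, 4 and 5 lie above replicates 1, 2 and 6 for Gfap, Steap4, Lcn2 and C3, control replicate 1 is low for Steap4, Lcn2 and C3, and mimic replicate 2 stands alone for Spp1.

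Adhesion and matrix genes were split, with 4 lower, 2 higher and 2 not called of 8. Fbln5, an elastic fiber protein, ranged from 11.3 to 21.2 CPM in control (median 19.1) and from 6.78 to 12.4 CPM in mimic (median 9.52). Only control replicate 1 fell within the mimic range, and the log2 fold change was -0.95 ± 0.16 (edgeR adjusted p = 0.000391). Tm4sf1, a membrane protein of the tetraspanin-like L6 family, ranged from 17.3 to 25.5 CPM in control (median 23.1) and from 12.4 to 17.9 CPM in mimic (median 15.7). Here too control replicate 1 was the only control library inside the mimic range, with a log2 fold change of -0.55 ± 0.10 (edgeR adjusted p = 0.000529). Icam1, an adhesion receptor for leukocytes, ranged from 12.3 to 18.4 CPM in control (median 14.9) and from 8.21 to 12.3 CPM in mimic (median 10.7). The groups met only at their edges, and the log2 fold change was -0.51 ± 0.11 (edgeR adjusted p = 0.0036). Icam1 shares 511 exon bases with a gene on the other strand that has no row in the count files. Cd44, the hyaluronan receptor, ranged from 46.4 to 60.7 CPM in control (median 50.9) and from 39.6 to 47.2 CPM in mimic (median 43.1). The highest mimic library, replicate 3, passed the lowest control libraries, and the log2 fold change was -0.29 ± 0.07 (edgeR adjusted p = 0.00481).

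The members that rose did so by small steps with tight replicates. Vcam1, an adhesion protein of the immunoglobulin family, ranged from 102 to 122 CPM in control (median 115) and from 127 to 137 CPM in mimic (median 132), a log2 fold change of 0.21 ± 0.04 (edgeR adjusted p = 0.00177). Each mimic library was above each control library. Emp1, a membrane protein of epithelial and glial cells, ranged from 26.0 to 34.6 CPM in control (median 32.5) and from 40.0 to 45.2 CPM in mimic (median 43.4), a log2 fold change of 0.43 ± 0.06 (edgeR adjusted p = 3.30e-05). Its groups were separated clearly. Amigo2, a cell adhesion protein with leucine-rich repeats, had a log2 fold change of 0.20 ± 0.04 (edgeR adjusted p = 0.0014) without overlap, and shares 58 exon bases with Pced1b. These 3 were the genes called higher in the list.

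In the membrane group, apart from Emp1, none of the 6 tested genes was called. Lgals1 and Anxa2, an annexin that binds membranes in the presence of calcium, had log2 fold changes of 0.01 ± 0.07 and 0.04 ± 0.05, and that of S100a10, the partner of annexin A2, was -0.01 ± 0.09. Cd109, a membrane-anchored relative of alpha-2-macroglobulin, had a log2 fold change of -0.29 ± 0.11. Its control replicate 1 was the lowest of the 12 libraries, and without that library it fell by 0.38 on the log2 scale (edgeR adjusted p = 0.000436). Among the enzymes, Tgm1, a transglutaminase, ranged from 1.35 to 3.14 CPM in control and from 0.530 to 1.7 CPM in mimic, with a log2 fold change of -1.06 ± 0.24 (edgeR adjusted p = 0.00399). The groups overlapped, and the gene had a mean of 49.4 counts. Tgm1 shares 182 exon bases with a gene on the other strand that has no row in the count files. Ggta1, a galactosyltransferase of the cell surface, ranged from 7.07 to 11.5 CPM in control (median 11.0) and from 7.38 to 9.13 CPM in mimic (median 8.35), a log2 fold change of -0.32 ± 0.10 (edgeR adjusted p = 0.0241). Control replicate 1 was the lowest of all 12 libraries, and this call was lost in several other settings. Aspg, an asparaginase, and B3gnt5, a glycosyltransferase of lactosylceramide, were not called, with log2 fold changes of -0.39 ± 0.21 and 0.14 ± 0.16.

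Spp1, which encodes the secreted phosphoprotein osteopontin, and Lgals3, a galectin of phagocytes, had positive log2 fold changes that rested on 1 library. Spp1 ranged from 6.51 to 11.7 CPM in control and from 3.06 to 50.0 CPM in mimic, and Lgals3 from 3.33 to 6.33 CPM in control and from 2.44 to 33.03 CPM in mimic. In both genes the highest value was mimic replicate 2, and the next mimic library had 15.03 CPM of Spp1 and 8.87 CPM of Lgals3. The log2 fold changes of 0.65 ± 0.67 (edgeR adjusted p = 0.566) and 0.97 ± 0.73 (edgeR adjusted p = 0.409) became -0.39 and -0.19 without that library. Srgn, the proteoglycan of secretory granules, was also highest there, at 1.94 CPM.

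In the same library the microglial markers summed to 45.5 CPM, against at most 32.02 CPM in the other mimic libraries. This came from Csf1r (9.34 CPM there, at most 4.73 CPM in the other mimic libraries), Fcer1g (7.08 against 1.67), Ptprc (4.56 against 1.49) and Trem2 (3.98 against 0.922), genes of macrophages and microglia. Aif1 was lowest of the 6 mimic libraries there, at 2.71 CPM, and C1qa, P2ry12 and Tmem119 lay within the range of the other mimic libraries. Over the list of 12 microglial genes, 3 were called lower, the C1q genes C1qa, C1qb and C1qc, and none higher. The part of these cells in the values of Spp1 and Lgals3 was not tested.

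**Figure D4:**
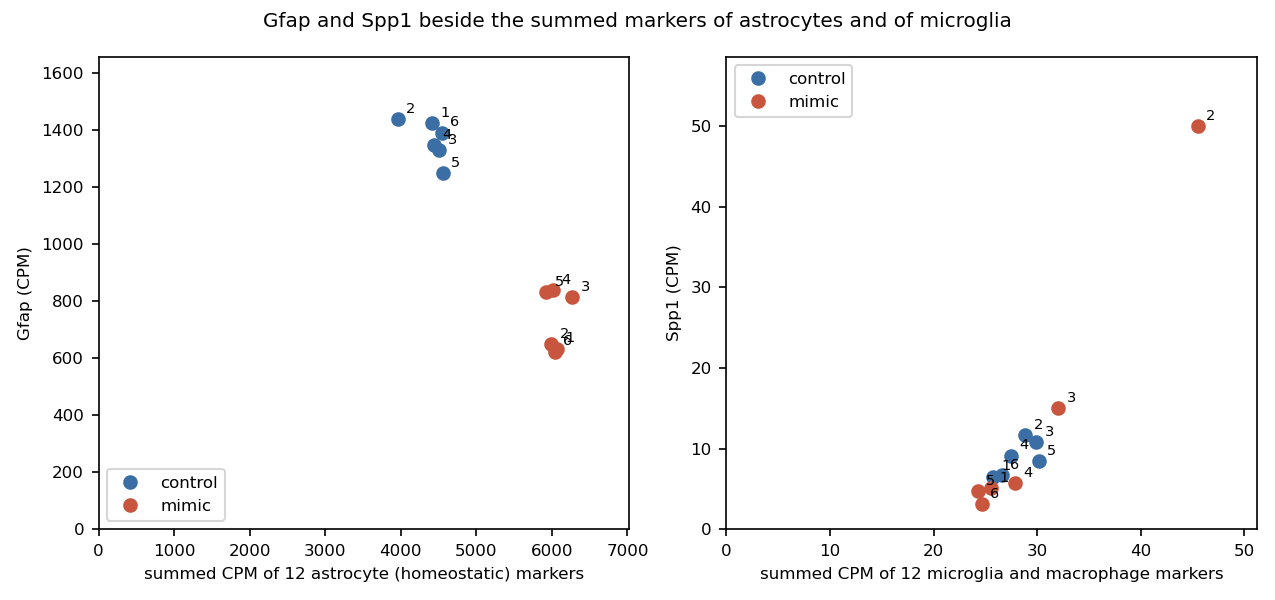
Left, Gfap (vertical axis, CPM) against the summed CPM of 12 homeostatic astrocyte markers (horizontal axis); right, Spp1 (CPM) against the summed CPM of 12 microglial and macrophage markers; each point is a library, numbered by replicate. Gfap was lower and the astrocyte sum higher in all 6 mimic libraries, and mimic replicate 2 lies far from the others on the right.

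The markers of homeostatic astrocytes moved the other way from the reactive genes. Of the 12 homeostatic markers, 10 were higher in mimic and none lower, and their sum ranged from 3960 to 4553 CPM in control and from 5927 to 6270 CPM in mimic, without overlap. Slc1a3, a glutamate transporter, had a log2 fold change of 0.99 ± 0.04 (edgeR adjusted p = 4.23e-11), and Glul, glutamine synthetase, one of 0.74 ± 0.04 (edgeR adjusted p = 3.20e-09). The genes not called were Sox9 and Aqp4, with log2 fold changes of -0.03 ± 0.05 and -0.17 ± 0.07. Set against this sum, Gfap was 27.4% to 36.3% in control and 10.3% to 14.0% in mimic, Vim 18.7% to 25.8% and 11.3% to 14.1%, and Serpina3n 2.31% to 3.00% and 1.28% to 1.42%. For C3 the shares were 2.85% to 5.55% in control and 0.789% to 1.88% in mimic, and for Lcn2 0.857% to 2.45% and 0.218% to 0.637%. The ranges of these 5 members did not overlap on that scale, though those of Lcn2 did in CPM. The sum itself was higher in mimic, which moves the shares of the groups apart. Much of it came from the glutamate transporters Slc1a2 (mean 1693 CPM in control, 2000 CPM in mimic) and Slc1a3 (913 and 1815 CPM). The shares are therefore no correction for the amount of astrocytes.

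Markers of other cell types moved as well. Fibroblast and mural markers summed to 216 to 288 CPM in control and 110 to 238 CPM in mimic, with 3 of 10 genes lower and 1 higher, and endothelial markers to 46.8 to 68.8 and 28.3 to 50.9 CPM, with Kdr and Flt1 lower of 5 tested genes. The endothelial sum is in effect that of Kdr (45.2 to 66.5 CPM in control, 26.6 to 49.8 CPM in mimic), and the other 4 tested markers were each at most 1.03 CPM in all libraries. The genes called lower in the fibroblast and mural list were the contractile genes Acta2, Tagln and Myl9, with log2 fold changes of -2.86, -1.74 and -1.17. Rgs5, a pericyte gene, rose by 1.16 on the log2 scale, and the collagen genes Col1a1, Col1a2 and Col3a1 were not called. Ependymal markers fell in 4 of 6 genes, from a sum of 109 to 128 CPM to one of 83.2 to 107 CPM. All 8 markers of cycling cells rose, from 191 to 235 CPM to 403 to 433 CPM, and 5 of 8 markers of the oligodendrocyte lineage rose and 1 fell, from 393 to 681 CPM to 768 to 963 CPM. Several members, among them Vim, Timp1, Fbln5, Cd44, Icam1 and Vcam1, are also expressed by fibroblasts or endothelial cells. Of the 8 neuron markers 2 fell and 1 rose, and their sums overlapped (6681 to 7484 CPM in control, 6610 to 6985 CPM in mimic). Tubb3, a neuronal tubulin, was at 767 to 837 CPM in control and 614 to 684 CPM in mimic (log2 fold change -0.32 ± 0.04, edgeR adjusted p = 4.65e-06). Stmn2, a stathmin of growing axons, fell by 0.20 on the log2 scale (edgeR adjusted p = 0.00011) and did not overlap either, and Nefm, a neurofilament subunit, rose by 0.17 (edgeR adjusted p = 0.038) with overlapping libraries. The part of these cell types in the values of the members was not tested.

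Many members shared an order of the libraries within a group. With Gfap, 15 of the other 36 members had a Pearson's r over 0.8 over the 6 mimic libraries (median r 0.73), and 0 of 36 over the 6 control libraries (median r -0.02), given as a description with no test. The share of all tested genes with such an r was not counted. Gfap lay in 2 clusters in mimic, and any gene with the same split has a high r there. Without the 2 libraries farthest from the median of Gfap, control r ran from -0.984 (Lgals3) to 0.945 (Bcl3). In 20 of the 37 tested members (54.1%) the 3 highest of the 6 mimic libraries were replicates 3, 4 and 5, an order found in 6.28% of all tested genes. It was seen in 17 of the 21 members that fell. The set induced by both stimuli described below, mostly members, showed it in 9 of 13 tested genes. Of tested genes of such sets that are no members, 4 of 11 had it. Among markers it was seen in 3 of 6 ependymal, 3 of 10 fibroblast and mural and 3 of 12 homeostatic astrocyte genes. The order was found in 1 of 5 endothelial and 1 of 12 microglial markers. None of 8 neuron, 8 cycling cell and 8 oligodendrocyte lineage markers had it. Of the upstream genes described below, 1 of 19 of the IL-6 family and STAT3 and 2 of 19 of NF-kappa-B signaling did. Gfap was 813 to 839 CPM in these 3 libraries and 622 to 649 CPM in the other 3. Their totals, 29574825 to 33808253 counts, were close to the 28316456 to 31001239 counts of the other 3. In control, replicate 1 was the lowest library in 22 of the 37 members (59.5%) and in 30.4% of all tested genes. It was lowest in all 5 genes of metal handling and protease inhibition but not in Gfap, where replicate 5 was lowest. Both orders were noticed after the values were seen.

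**Figure D5:**
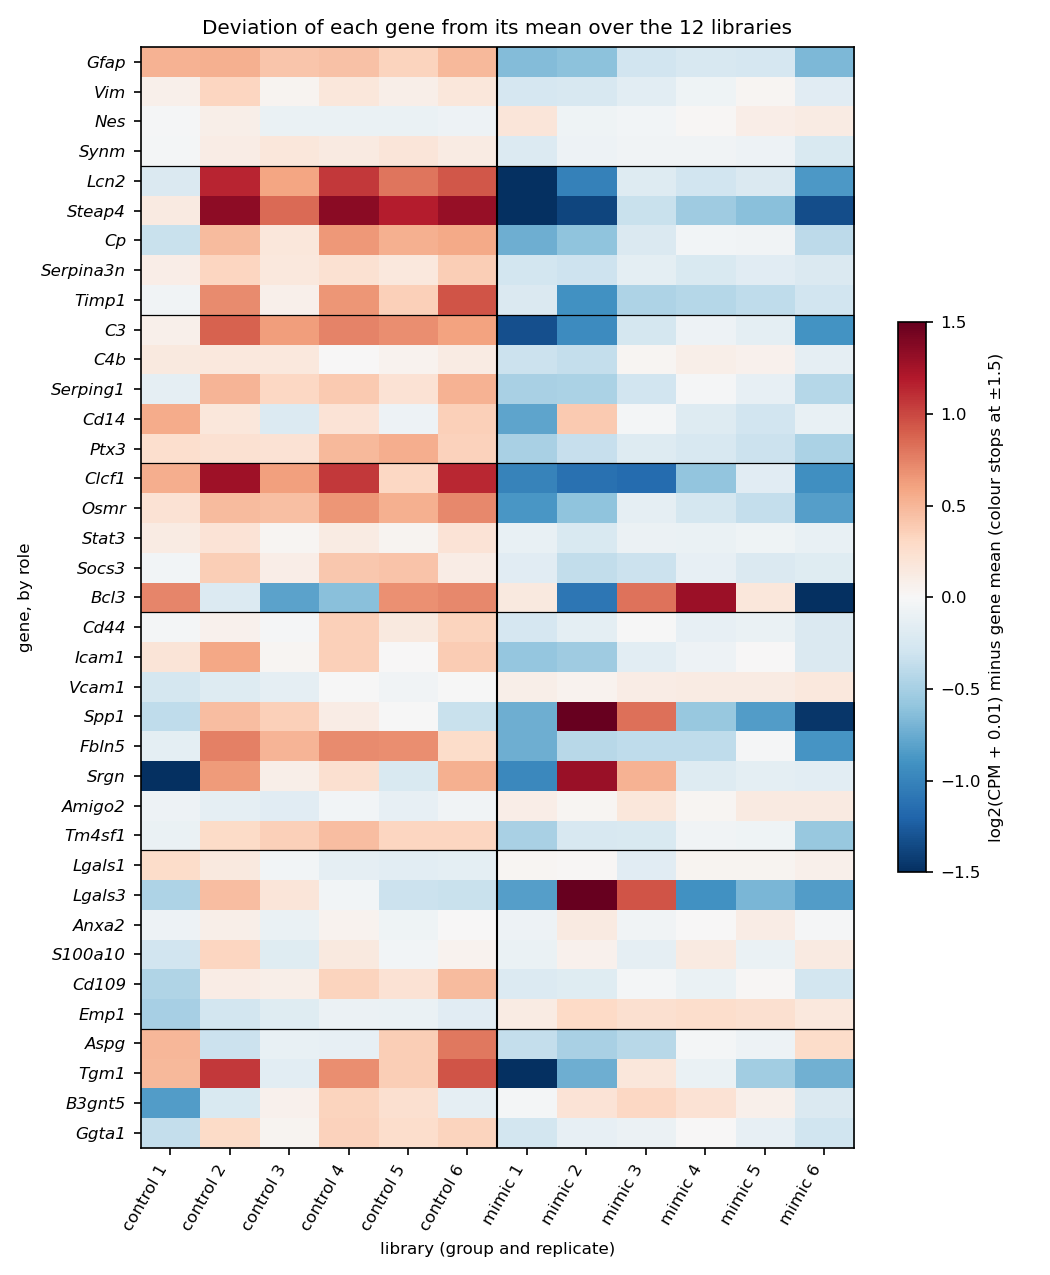
Each row is a tested member, grouped by role, and each column a library; color gives log2(CPM + 0.01) minus the mean of the gene over the 12 libraries, and stops at 1.5 in either direction. Blue is darker in mimic replicates 1, 2 and 6 than in replicates 3, 4 and 5 for Lcn2, Steap4 and C3, and mimic replicate 2 is red for Spp1, Srgn and Lgals3.

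A score was formed for each library as the mean deviation of the members from their means over the 12 libraries, on the log2 scale. Over all 37 tested members it ranged from -0.05 to 0.33 in control and from -0.44 to -0.06 in mimic. By role, the scores of 4 of the 7 groups did not overlap, those of filaments, of metal handling and protease inhibition, of complement and of cytokine signaling. The score of metal handling and protease inhibition ran from -0.08 to 0.78 in control and from -0.95 to -0.25 in mimic, the widest spread of the 7, while that of filaments ran only from 0.13 to 0.26 and from -0.25 to -0.05. The adhesion, membrane and enzyme scores overlapped, and for the adhesion and membrane groups mimic replicate 2 was the highest of all 12 libraries.

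Within a group of 6 libraries, scores of metal handling and of complement genes ran together, with Pearson's r of 0.963 in control and 0.941 in mimic (Spearman's rho 0.943 and 0.771), and r of 0.979 and 0.958 without the 2 libraries farthest from the median. With the metal handling score 3 of 16 relations, over 8 marker lists and both groups, had an r over 0.7 in size. It ran with ependymal markers in mimic (r = 0.92, rho = 0.77, r = 0.87 without the 2 farthest), and in control the values were lower (r = 0.55, rho = 0.26, r = 0.16). In control it ran against homeostatic astrocyte markers (r = -0.96, rho = -0.77, r = -0.86) and with cycling cells (r = 0.80, rho = 0.94, r = 0.65). In mimic r was -0.41 and -0.48 for these lists. Of the 21 pairs of role groups, 5 had an r over 0.8 in both groups, and 3 of the 5 still did without the 2 farthest libraries. In the other 2 the control r fell to 0.278 (metal handling with enzymes) and to 0.131 (complement with enzymes). The score of all members ran against that of the homeostatic astrocyte markers in control (r = -0.98, rho = -0.94, r = -0.98 without the 2 farthest). In mimic r was -0.78 and rho -0.37, and r without the 2 farthest libraries turned to 0.999, so that no order can be read there. Over the 8 marker lists and both groups, 5 of 16 relations with the score of all members had an r over 0.7 in size. Beside the homeostatic astrocyte markers these were cycling cells in both groups and neurons in mimic. With markers of cycling cells that score ran together in control (r = 0.77, rho = 0.77, r = 0.38 without the 2 farthest) and in opposite order in mimic (r = -0.78, rho = -0.94, r = -0.72). With neuron markers it ran together in mimic (r = 0.77, rho = 0.83, r = 0.93 without the 2 farthest), while control gave lower values (r = -0.22, rho = 0.09, r = -0.43). These values describe 6 libraries that share a scaling to total counts, and the mimic libraries lie in 2 clusters for many members.

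Reactive astrocyte genes are often divided by the stimulus that raises them: by both a lipopolysaccharide injection and ischemia, by the first, or by the second. Of 13 tested genes of the set common to both stimuli, 11 fell and none rose. Of 11 tested genes of the lipopolysaccharide set, 8 fell and 2 rose, and of 11 of the ischemia set, 4 fell and 2 rose. The median log2 fold changes were -0.90, -0.60 and -0.29, and a difference between the sets was not tested. Most of these genes are members; of the 12 that are not, 11 were tested, 7 fell and 2 rose, and Ugt1a1 had no counts. Gbp2, an interferon-induced GTPase of the lipopolysaccharide set, had 5.76 to 12.2 CPM in control and 2.64 to 4.23 CPM in mimic, a log2 fold change of -1.57 ± 0.16 (edgeR adjusted p = 3.36e-06). S1pr3, a receptor for sphingosine 1-phosphate, had 196 to 242 and 79.5 to 126 CPM, a log2 fold change of -1.10 ± 0.11 (edgeR adjusted p = 3.33e-06). Cxcl10, a chemokine induced by interferon, had 2.63 to 5.61 and 1.97 to 2.73 CPM, a log2 fold change of -0.93 ± 0.15 (edgeR adjusted p = 0.000153). Ptgs2, the inducible cyclooxygenase, rose by 0.56 ± 0.12 (edgeR adjusted p = 0.00183) on the log2 scale. Gbp2 and S1pr3 did not overlap between the groups, while Cxcl10 and Ptgs2 did.

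Genes upstream of the members were mixed. Of 19 tested genes of IL-6 family signaling and STAT3, 7 fell and 2 rose, with a median log2 fold change of -0.01. Il6st, which encodes the shared receptor subunit gp130, had 123 to 133 CPM in control and 82.2 to 93.8 CPM in mimic, a log2 fold change of -0.54 ± 0.04 (edgeR adjusted p = 1.82e-08). Cebpd, a transcription factor of the acute phase response, had 18.3 to 25.2 and 7.51 to 11.4 CPM, a log2 fold change of -1.21 ± 0.11 (edgeR adjusted p = 4.45e-07). Neither gene overlapped between the groups. Lifr, the receptor subunit for leukemia inhibitory factor, rose, with 23.6 to 32.2 CPM in control and 36.7 to 40.1 CPM in mimic (edgeR adjusted p = 9.88e-05). Receptor subunits of the same family moved in both directions, Osmr and Il6st lower and Lifr higher. Of the ligands, Lif fell with a log2 fold change of -0.85 ± 0.13 (edgeR adjusted p = 0.000129) and Ctf1 with one of -0.59 ± 0.13 (edgeR adjusted p = 0.00344), neither with overlap and both rare, at means of 55.0 and 53.6 counts. Il6 and Osm did not pass the filter.

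Of 19 genes of NF-kappa-B signaling, 5 fell and 3 rose, with a median log2 fold change of -0.04. Tlr2, a receptor for bacterial lipoproteins, had 2.88 to 5.75 CPM in control and 1.29 to 3.07 CPM in mimic, a log2 fold change of -1.08 ± 0.17 (edgeR adjusted p = 0.00019). The interleukin-1 receptor Il1r1 had 7.02 to 10.4 and 4.40 to 6.49 CPM, a log2 fold change of -0.78 ± 0.11 (edgeR adjusted p = 3.75e-05). Nfkbia, an NF-kappa-B target that encodes the inhibitor I-kappa-B-alpha, had 32.9 to 38.1 and 27.7 to 31.7 CPM, a log2 fold change of -0.28 ± 0.05 (edgeR adjusted p = 0.00041). Il1r1 and Nfkbia did not overlap between the groups, while the highest mimic library of Tlr2 passed the lowest control library.

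Promoter motifs of these pathways were counted in 31 members with a RefSeq promoter, the window from 250 bases before to 50 after the start of the gene, on both strands. The STAT pattern TTCNNNGAA was present in 6 (19.4%), Emp1, Gfap, Icam1, Socs3, Steap4 and Tgm1, and in 8.22% of 12830 tested genes. The C/EBP pattern TTGCNNAA was present in 9 members (29.03%) and in 10.04% of tested genes, and the NF-kappa-B pattern, GGGA and CC with 4 free bases between them, in 15 (48.4%) and 29.9%. Over all 32851 promoter windows the shares were 8.30%, 10.8% and 20.7%. Such short patterns occur in many promoters, and a match describes the letters and not a bound site. Stretches of 7 called members with STAT or C/EBP patterns are given 5′ to 3′ on the strand of the gene with the pattern in capitals (GRCm38.p6).
Steap4, STAT, chr5:7960348-7960372, plus strand: ttgaactcTTCCCGGAAactttgct
Steap4, C/EBP, chr5:7960377-7960400, plus strand: agctcctcTTGCGAAAtcaagcgg
Gfap, STAT, chr11:102897186-102897210, minus strand: gggggtgcTTCCAGGAAgtcagggg
Socs3, STAT, chr11:117969504-117969528, minus strand: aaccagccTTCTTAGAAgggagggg
Icam1, STAT, chr9:21015890-21015914, plus strand: cgcgaggtTTCCCGGAAagtggccc
Emp1, STAT, chr6:135362901-135362925, plus strand: cagactgaTTCATAGAAactccttt
Lcn2, C/EBP, chr2:32387940-32387963, minus strand: ccttcctgTTGCTCAAccttgcac
C3, C/EBP, chr17:57228166-57228189, minus strand: aaactatgTTGCGAAAttttgggc
Steap4, the member with the largest fall, held all 3 patterns without overlap between them. The members with a STAT pattern included 5 that fell and Emp1, which rose.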

How the data were processed

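Per the labels, poly(A) RNA was made into libraries with a TruSeq kit that does not mark strand and read as 50 bp single ends. The submitters' processing notes name STAR 2.5.2b, featureCounts of Subread 1.5.1 and mm10 (GRCm38). The authors deposited raw counts for 48709 genes per library, used here, and a normalized signal (counts divided by a factor per library) for 18289 genes, used in 1 alternative. The strand setting is not given in the sources used here, so overlapping genes cannot be told apart. The filter kept genes that reached 5 counts in 6 or more libraries, and these were tested with edgeR 4.0.16 (quasi-likelihood, robust, TMM, R 4.3.3), two-sided, with Benjamini-Hochberg adjustment over all 18847 genes, and called at an adjusted p under 0.05. The standard error is the log2 fold change divided by the root of F. CPM use TMM-scaled totals. Members, lists and roles were chosen with earlier results of these data known. Values in full are given for called members averaging 100 counts or more, at most 20 by size of change, and for Gfap, Vim, Lcn2, Serpina3n, C3, Stat3 and Cd44; of the genes of reactive astrocyte sets that are no members and of both upstream lists the 3 called genes of largest change at that depth were named, and genes named beyond these were chosen after their values were seen. Replicate libraries differed by more than sampling noise (chi-square per degree of freedom of at least 1.78). Alternatives were DESeq2 1.42.0, median-ratio scaling, no filter, filterByExpr, a minimum fold change of 1.2, the deposited signal as log2(value + 1) in limma 3.58.1, a replicate block and leaving out each library. 3′ UTRs came from GENCODE M21, promoters and the mature microRNA from RefSeq, and oligonucleotide sequences from the reagent list of the study.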

Additional observations from a re-analysis of the deposited data

Results flagged for a closer look

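The highest or lowest library of a group was set apart when its gap to the next one, relative to the range of the group of 6, exceeded Dixon's 95% critical value. Of 74 combinations of member and group, 5 met this, and 3.7 are expected by chance (1 in 20). In mimic replicate 2, Spp1 reached 50.0 CPM and Lgals3 33.03 CPM, each the highest of the group, and Stat3 was lowest at 115 CPM. Control replicate 1 was lowest for Tm4sf1 at 17.3 CPM, and mimic replicate 3 for Lgals1 at 71.1 CPM.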

How the results depend on the processing

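Of the 24 called members, 14 kept their call and direction in all 20 alternatives. A minimum fold change of 1.2 left 13 members lower and 1 higher, and 1.87% and 3.62% of all tested genes. Leaving out 1 library at a time gave 20 to 22 members lower and 3 higher in each case, while over all genes 1612 to 2453 were lower and 1880 to 2697 higher. Without control replicates 1 and 2, chosen after seeing the data, 22 were lower and 5 higher (Nes and Lgals1 were added), beside 15.2% and 16.1% of all genes. With 8-base seed sites alone 0 members had a site. Among the other settings Ggta1 lost its call with limma on the deposited values, without control replicate 2, 4 or 6, or without mimic replicate 1 or 6 (adjusted p from 0.0530 to 0.0646), and C4b gained one with DESeq2, with limma on the deposited values, without control replicate 4 or without mimic replicate 3, 4 or 5 (adjusted p from 0.0254 to 0.0499). Directions turned only in members that were not called. With limma on the deposited values the log2 fold change of Spp1 was -0.068 and that of S100a10 0.000492. Over the fits that left out 1 library it ran from -0.22 to 0.32 for Bcl3, -0.39 to 0.85 for Spp1, -0.22 to 0.28 for Srgn, -0.0182 to 0.0717 for Lgals1 and -0.0572 to 0.0577 for S100a10. For Lgals3 it ran from -0.19 to 1.17, the negative value being that without mimic replicate 2. Without control replicates 1 and 2 it was 0.0101 for S100a10 and -0.0334 for B3gnt5. The causes were not tested. Same-numbered libraries did not clearly deviate together (correlations from -0.11 to 0.23), and the numbers were used as names of samples only. Such values cannot show whether same-numbered libraries shared a preparation, because differences between single samples can hide it. With a replicate block 21 members were lower and 3 higher, the same calls, and over all genes 1709 were lower and 1950 higher. Members of few counts, such as Bcl3, Srgn and Aspg, are the least precise.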
